A study of Mus musculus with 8 samples.

Results

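Glycolysis splits glucose into pyruvate in the cytosol and yields ATP without oxygen. Lactate dehydrogenase then turns pyruvate into lactate, whereas pyruvate that enters the mitochondrion is turned into acetyl-CoA by the pyruvate dehydrogenase complex. Pyruvate dehydrogenase kinases switch that complex off by phosphorylation, and haematopoietic stem cells of the bone marrow are known for a reliance on glycolysis that involves the hypoxia-inducible factor HIF-1 and these kinases. The genes described here were 8 glycolytic enzyme genes (Hk1, Hk2, Gpi1, Pfkl, Aldoa, Pgk1, Eno1 and Ldha) and 2 kinase genes (Pdk1 and Pdk2), chosen by gene symbol. All 10 were found among the 20207 genes of the files, and all 10 were among the 12561 genes tested, those whose RPKM (read density scaled by transcript length and library depth) summed to more than 1 over the libraries.

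RNA sequencing was analysed in 8 libraries of sorted mouse bone marrow cells. The CML cells came from a tetracycline-regulated model of chronic myeloid leukaemia, Tal1-tTA × TRE-BCR-ABL1 double-transgenic mice, in which regulatory sequence of Tal1 drives the transactivator and withdrawal of doxycycline (DOX) switches on BCR-ABL1. The normal cells came from healthy mice that the study describes as Tal1-tTA+ littermates, so that the transactivator transgene would be shared by both groups. The labels name C57BL/6 for all samples, whereas the study's methods give an FVB/N background. They give an age for normal mice only, which was 2 months for LT-HSC replicate 1, ST-HSCs and normal KLS- cells and 6 months for LT-HSC replicate 2. Within the KLS+ (cKit+Lineage-Sca-1+) fraction, long-term (LT) stem cells were gated as CD150+CD48-CD135- and short-term (ST) stem cells as CD150-CD48-CD135-. Progenitors (KLS-) were gated as cKit+Lineage-Sca-1-. There were 2 libraries of LT-HSCs, 2 of LT-CML stem cells and 1 each of ST-HSCs, ST-CML stem cells, normal KLS- cells and CML-KLS- cells. The LT-HSC replicates came from mice of different ages. No source states how many animals each library held or whether the LT-CML replicates came from separate ones, and p-values measure the spread between these libraries.

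Several features of the libraries bear on the results. Ly6a, which encodes Sca-1, stood at 72.4 to 152 RPKM in the 6 stem cell libraries and at 8.16 and 11.7 RPKM in the KLS- libraries, and Slamf1, which encodes CD150, was at 10.7 to 35.5 RPKM in LT and 1.11 and 2.87 RPKM in ST libraries. Flt3, which encodes CD135, was at 61.6 RPKM in ST-HSCs and 71.6 RPKM in ST-CML stem cells, although these were gated as CD135-. In LT libraries it was at 3.95 and 2.52 RPKM in LT-HSCs and 11.9 and 19.2 RPKM in LT-CML stem cells. Cd48 was likewise at 41.8 RPKM in ST-HSCs and 45.2 RPKM in ST-CML stem cells, although these were gated as CD48-. It was at 10.45 and 5.17 RPKM in LT-HSCs and 16.8 and 29.5 RPKM in LT-CML stem cells. The gates read protein on the cell surface and these values are RNA, so the purity of the sort was not tested. The second replicate of each LT population stood apart. It held Ddx3y, a Y-linked gene, at 31.0 RPKM in LT-HSCs and 17.5 RPKM in LT-CML stem cells against at most 0.0625 RPKM elsewhere. Xist, an X-linked transcript of female cells, was at 0.154 RPKM in LT-HSC replicate 2 but at 13.5 RPKM in LT-CML replicate 2, against 12.4 to 30.8 RPKM elsewhere. The summed RPKM of 8 neutrophil granule genes was 4040 and 2711 in these second replicates against 246 to 1541 in the other stem cell libraries. Its largest part was S100a8 in LT-HSC replicate 2 (1802 RPKM). In LT-CML replicate 2 (1291 RPKM) and ST-CML stem cells (830 RPKM) it was Mpo. H2-Ea, which C57BL/6 mice do not express, was at 0.143 to 1.58 RPKM in the 4 CML libraries and at 0 to 0.0640 RPKM in the 4 normal ones, so disease and genetic background cannot be told apart. Steps between low RPKM values gave an estimated depth of 17.8 to 23.9 M reads, at which the enzymes rested on an estimated 122 (Pdk2) to 28096 (Ldha) reads per library, with a counting error of at most 9.05%.

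Promoters of 5 of the 6 genes that differed between KLS- and stem cells are shown for the sequence they share or lack. They are RefSeq sequences of GRCm38.p6, 250 bases before to 50 bases after an annotated start site, written on the strand of the gene. All 10 genes matched, with 18 promoters among them. Capitals mark ACGTG on either strand (CACGT on the printed one), a form of the core that HIF-1 binds. Other forms of that core were not searched. Where the capitals read CACGTG they also form the E-box bound by MYC and USF factors.
Ldha (chr7:46845554-46845853, plus strand): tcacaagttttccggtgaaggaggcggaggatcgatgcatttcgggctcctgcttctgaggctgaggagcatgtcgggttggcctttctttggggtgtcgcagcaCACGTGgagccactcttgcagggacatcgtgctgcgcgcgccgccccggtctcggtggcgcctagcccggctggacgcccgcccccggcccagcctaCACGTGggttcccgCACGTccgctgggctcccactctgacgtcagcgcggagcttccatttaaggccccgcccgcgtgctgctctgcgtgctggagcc
Pgk1 (chrX:106186850-106187149, plus strand): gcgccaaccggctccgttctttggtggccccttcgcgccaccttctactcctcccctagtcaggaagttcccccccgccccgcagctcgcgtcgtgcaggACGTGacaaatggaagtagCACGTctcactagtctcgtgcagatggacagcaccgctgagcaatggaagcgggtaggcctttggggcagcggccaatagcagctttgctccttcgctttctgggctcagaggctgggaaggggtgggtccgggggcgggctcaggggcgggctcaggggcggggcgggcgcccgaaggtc
Aldoa (chr7:126799205-126799504, minus strand): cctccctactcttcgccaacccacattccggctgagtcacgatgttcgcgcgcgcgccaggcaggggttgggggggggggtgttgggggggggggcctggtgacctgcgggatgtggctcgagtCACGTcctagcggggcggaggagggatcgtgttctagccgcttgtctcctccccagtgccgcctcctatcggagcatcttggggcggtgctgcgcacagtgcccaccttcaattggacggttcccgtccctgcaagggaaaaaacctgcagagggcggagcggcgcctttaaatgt
Pdk2 (chr11:95041322-95041621, minus strand): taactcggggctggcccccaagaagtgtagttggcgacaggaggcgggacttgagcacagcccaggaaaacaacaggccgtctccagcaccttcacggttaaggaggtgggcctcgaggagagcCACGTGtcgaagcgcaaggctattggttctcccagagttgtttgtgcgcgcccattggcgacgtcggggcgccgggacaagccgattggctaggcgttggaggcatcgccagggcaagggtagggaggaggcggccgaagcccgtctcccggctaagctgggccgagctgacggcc
Gpi1 (chr7:34230287-34230586, minus strand): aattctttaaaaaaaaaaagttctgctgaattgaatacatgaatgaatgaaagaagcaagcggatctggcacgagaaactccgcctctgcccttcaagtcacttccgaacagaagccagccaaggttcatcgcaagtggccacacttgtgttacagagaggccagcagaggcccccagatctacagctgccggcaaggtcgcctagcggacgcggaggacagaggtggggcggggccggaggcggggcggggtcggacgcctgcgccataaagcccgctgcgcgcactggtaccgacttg
ACGTG occurred in 7 of the 18 promoters and in 19.6% of all 32851 promoters of this length. Of the 7, 2 were overlapping Aldoa promoters that held the same match. The 7 belonged to 6 of the 10 genes (Hk1, Hk2, Aldoa, Pgk1, Ldha and Pdk2). No share over all genes was taken per gene, so this count cannot be set against the 19.6% of promoters. CACGTG, which always contains ACGTG, occurred in 2 of the 18, one of Ldha and one of Pdk2, and in 7.15% of all promoters. The printed Ldha promoter held 5 matches to ACGTG counted over both strands, 2 E-boxes included, and the printed Gpi1 promoter held none. For Ldha, Aldoa and Pdk2 a start site with ACGTG is printed, and each of these genes also had a promoter without it. Eno1, whose promoters are not printed, had no match to ACGTG in any of them. These are matches of letters, and binding was not measured.

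Levels of the 10 genes spanned a wide range. On the RPKM scale, Ldha, the lactate dehydrogenase subunit that favours lactate formation, was the most abundant in the stem cell libraries at 438 ± 100 RPKM (SD, n = 6), followed by Aldoa, the main aldolase, at 304 ± 62.2 RPKM. Gpi1, glucose-6-phosphate isomerase, and Pgk1, phosphoglycerate kinase, stood at 124 ± 20.7 and 115 ± 6.10 RPKM. Hk1, a hexokinase that traps glucose in the cell, and Pfkl, a subunit of phosphofructokinase, were at 24.9 ± 7.35 and 23.1 ± 5.99 RPKM. Eno1, enolase, was at 11.5 ± 1.66 RPKM and Hk2, another hexokinase, at 11.4 ± 3.57 RPKM. The kinases Pdk2 and Pdk1 were lowest, at 6.79 ± 0.892 and 4.26 ± 0.956 RPKM. Neighbours in this order overlapped in range for Ldha and Aldoa, for Gpi1 and Pgk1, for Hk1 and Pfkl, for Eno1 and Hk2 and for Hk2 and Pdk2. The others of the order did not, Pdk2 and Pdk1 among them.

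**Figure D1:**
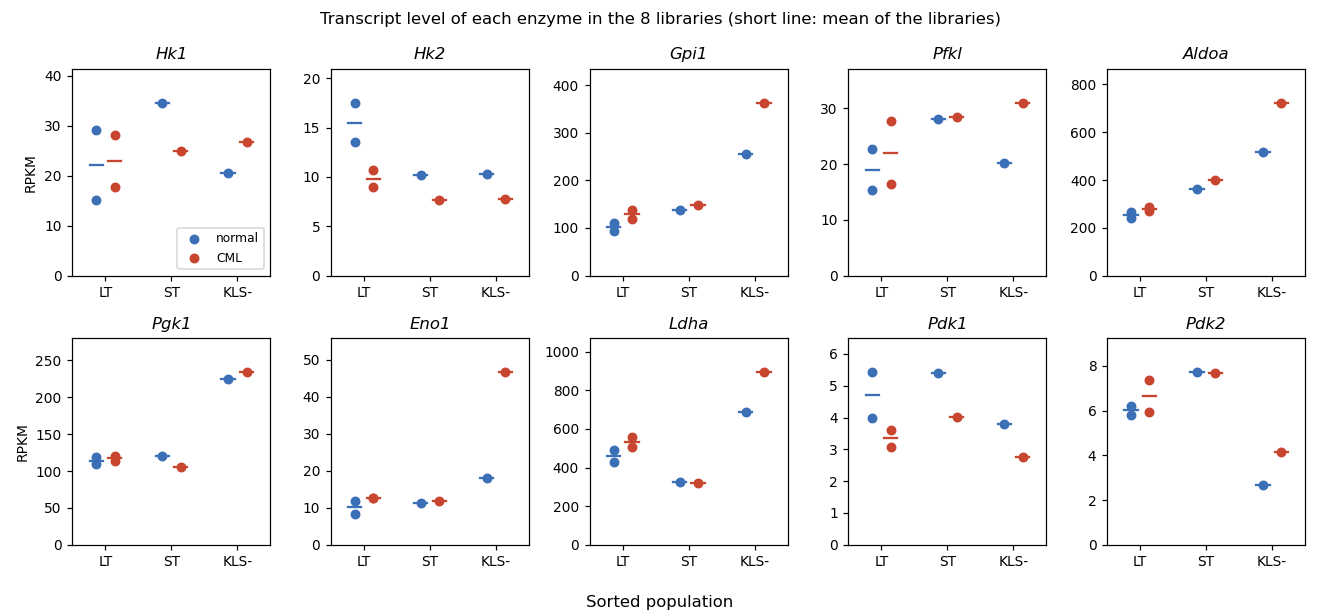
RPKM (vertical axis, from 0, scaled separately for each gene) of the 10 genes in LT, ST and KLS- cells (horizontal axis), with 1 point per library, normal in blue and CML in red, and short lines for the mean of the libraries. Gpi1, Aldoa, Pgk1, Eno1 and Ldha lie higher in both KLS- libraries than in any stem cell library, Pdk2 lies lower, and normal and CML stem cell points overlap for every gene.

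The first comparison asked how the enzymes differ between stem cells and the KLS- progenitors they give rise to. Of the 10 genes, 5 were higher in KLS- cells (Gpi1, Aldoa, Pgk1, Eno1 and Ldha), Pdk2 was lower, and Hk1, Hk2, Pfkl and Pdk1 did not pass the test. The 2 KLS- libraries were compared with the 6 stem cell libraries by limma on log2(RPKM + 1) with disease state as a term, and p-values were adjusted over all genes tested with a threshold of 0.05. On this scale differences of weakly expressed genes are understated. Many genes differed in this comparison: 41.6% of those tested passed, 19% in the higher direction and 22.7% in the lower. The median difference of the 10 genes was 0.51 on the log2 scale, against -0.08 over all genes tested. In bulk samples, fewer cells of a type and less RNA per cell cannot be told apart, and KLS- cells hold several committed types. The 8 neutrophil granule genes summed to 9490 and 15562 RPKM in the KLS- libraries against 246 to 4040 RPKM in the stem cell libraries, with Mpo highest at 7891 and 13120 RPKM. Of the 8, Mpo, Prtn3 and Ctsg were higher by limma and none was lower, while Camp, Ltf, Ngp and S100a9, which did not pass, had differences of -1.58, -2.07, -2.11 and -1.31, and the median of the 8 was -0.57. The 9 cell-cycle genes summed to 757 and 768 RPKM against 177 to 533 RPKM. The part of either in the differences was not tested.

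Hexokinase catalyses the entry step, and neither of its 2 genes passed the test. Hk1 was at 29.2 and 15.1 RPKM in LT-HSCs, 34.5 RPKM in ST-HSCs, 28.2 and 17.6 RPKM in LT-CML stem cells and 24.9 RPKM in ST-CML stem cells, with 20.5 RPKM in normal KLS- and 26.7 RPKM in CML-KLS- cells. Both KLS- values fell inside the range of the stem cells, and the difference was -0.03 on the log2 scale (95% interval -0.72 to 0.65, limma adjusted p = 0.934). Hk2 was at 13.5 and 17.5 RPKM in LT-HSCs, 10.2 RPKM in ST-HSCs, 8.94 and 10.7 RPKM in LT-CML stem cells and 7.66 RPKM in ST-CML stem cells, against 10.3 and 7.77 RPKM in normal and CML-KLS- cells. Its difference was -0.28 (interval -0.73 to 0.18, limma adjusted p = 0.291). A further hexokinase, Hk3, rose from 1.08 to 14.5 RPKM across the stem cell libraries to 49.2 and 49.5 RPKM in the KLS- libraries (log2 difference 3.20 ± 0.72 SE, limma adjusted p = 0.00812). Hk3 made up 61.5% and 59.0% of the summed hexokinase RPKM in normal and CML-KLS- cells and 2.82% to 26.8% in stem cells, where Hk1 held 42.2% to 73.5%.

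The next steps rearrange and split the 6-carbon sugar. Gpi1 was at 111 and 92.7 RPKM in LT-HSCs, 139 RPKM in ST-HSCs, 119 and 138 RPKM in LT-CML stem cells and 148 RPKM in ST-CML stem cells, and rose to 254 RPKM in normal KLS- and 362 RPKM in CML-KLS- cells. The groups did not overlap, and the difference was 1.30 ± 0.17 (SE) on the log2 scale (limma adjusted p = 0.000766). Pfkl gave 15.3 to 28.4 RPKM in stem cells and 20.3 and 30.9 RPKM in normal and CML-KLS- cells, a difference of 0.15 (interval -0.46 to 0.77, limma adjusted p = 0.662). Its relative Pfkp, the platelet-type subunit, was higher in KLS- cells at 23.1 and 31.0 RPKM against 10.9 to 17.3 RPKM (0.95 ± 0.15 SE, limma adjusted p = 0.00179). Aldoa was at 266 and 240 RPKM in LT-HSCs, 362 RPKM in ST-HSCs, 287 and 272 RPKM in LT-CML stem cells and 399 RPKM in ST-CML stem cells, and at 518 and 722 RPKM in normal and CML-KLS- cells. Both KLS- values lay above all stem cell values, by 1.03 ± 0.20 (SE) on the log2 scale (limma adjusted p = 0.00450). Aldoc, the brain-type aldolase, went the other way, from 7.10 to 17.8 RPKM in stem cells to 0.435 and 0.825 RPKM, yet Aldoa held at least 95.2% of the aldolase RPKM in every library.

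Pgk1 and Eno1 act in the second stage, which makes ATP. Pgk1 was at 119 and 109 RPKM in LT-HSCs, 120 RPKM in ST-HSCs, 121 and 114 RPKM in LT-CML stem cells and 106 RPKM in ST-CML stem cells, and at 225 and 234 RPKM in normal and CML-KLS- cells. The rise was 0.99 ± 0.11 (SE) on the log2 scale (limma adjusted p = 0.000360). Eno1 was at 11.97 and 8.27 RPKM in LT-HSCs, 11.4 RPKM in ST-HSCs, 12.8 and 12.7 RPKM in LT-CML stem cells and 11.9 RPKM in ST-CML stem cells. It reached 18.2 RPKM in normal KLS- and 46.7 RPKM in CML-KLS- cells, so that the KLS- libraries lay above the stem cells but far from each other (1.29 ± 0.24 SE, limma adjusted p = 0.00354). Without the CML-KLS- library the Eno1 difference was 0.75 and no longer passed (limma adjusted p = 0.0724).

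Both genes are uncertain because near-identical copies exist elsewhere in the genome and the treatment of reads with several matches is not given in the sources used here. Of the 100-base stretches of the Pgk1 transcript (chrX:103382439-103399038 in NCBI Build 37, plus strand), 89.8% occurred again elsewhere in that genome. For Eno1 (chr4:149610830-149622988, plus strand) the share was 59%, and 58.6% occurred in the transcript of Gm5506, a gene listed separately in the files and examined here after its values were seen. Gm5506 was at 0.151 to 0.369 RPKM in the 4 normal libraries and at 37.97 and 42.3 RPKM in LT-CML, 46.3 RPKM in ST-CML and 161 RPKM in CML-KLS- libraries. The sum of Eno1 and Gm5506 was 8.46 to 18.5 RPKM in normal and 50.7 to 208 RPKM in CML libraries. With the sum in place of Eno1, the KLS- difference was 1.33 (limma adjusted p = 0.00388). The share was 9.39% for Gpi1, 1.32% for Ldha and 0 for the other 6 genes.

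At the end of the pathway, Ldha was at 491 and 428 RPKM in LT-HSCs, 324 RPKM in ST-HSCs, 561 and 508 RPKM in LT-CML stem cells and 318 RPKM in ST-CML stem cells. It stood at 689 RPKM in normal KLS- and 893 RPKM in CML-KLS- cells. The KLS- values lay above all stem cell values, by 0.87 ± 0.23 (SE) on the log2 scale (limma adjusted p = 0.0167). Ldhb, the subunit that favours the return from lactate to pyruvate, fell from 55.8 to 116 RPKM in stem cells to 42.8 and 25.9 RPKM (-1.17 ± 0.18 SE, limma adjusted p = 0.00156). Ldha therefore took 94.1% and 97.1% of the lactate dehydrogenase RPKM in KLS- cells against 73.6% to 90.9% in stem cells.

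The kinases that keep pyruvate from conversion to acetyl-CoA had the lowest mean levels of the 10 genes. Pdk2 was at 6.21 and 5.81 RPKM in LT-HSCs, 7.72 RPKM in ST-HSCs, 7.39 and 5.95 RPKM in LT-CML stem cells and 7.66 RPKM in ST-CML stem cells, and fell to 2.68 RPKM in normal KLS- and 4.17 RPKM in CML-KLS- cells. The groups did not overlap (-0.83 ± 0.17 SE on the log2 scale, limma adjusted p = 0.00549). Pdk1 was at 3.08 to 5.42 RPKM in stem cells and at 3.80 and 2.75 RPKM in normal and CML-KLS- cells, a difference of -0.29 (interval -0.64 to 0.06, limma adjusted p = 0.161). Pdk3, which was no member of the 10, was the most abundant kinase of the family in every library, with 45.6% to 59.7% of its RPKM, and was lower in KLS- cells (-0.55 ± 0.15 SE, limma adjusted p = 0.0206). All 4 kinases together summed to 18.3 to 26.1 RPKM in stem cells and to 15.6 and 13.6 RPKM in KLS- cells.

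**Figure D2:**
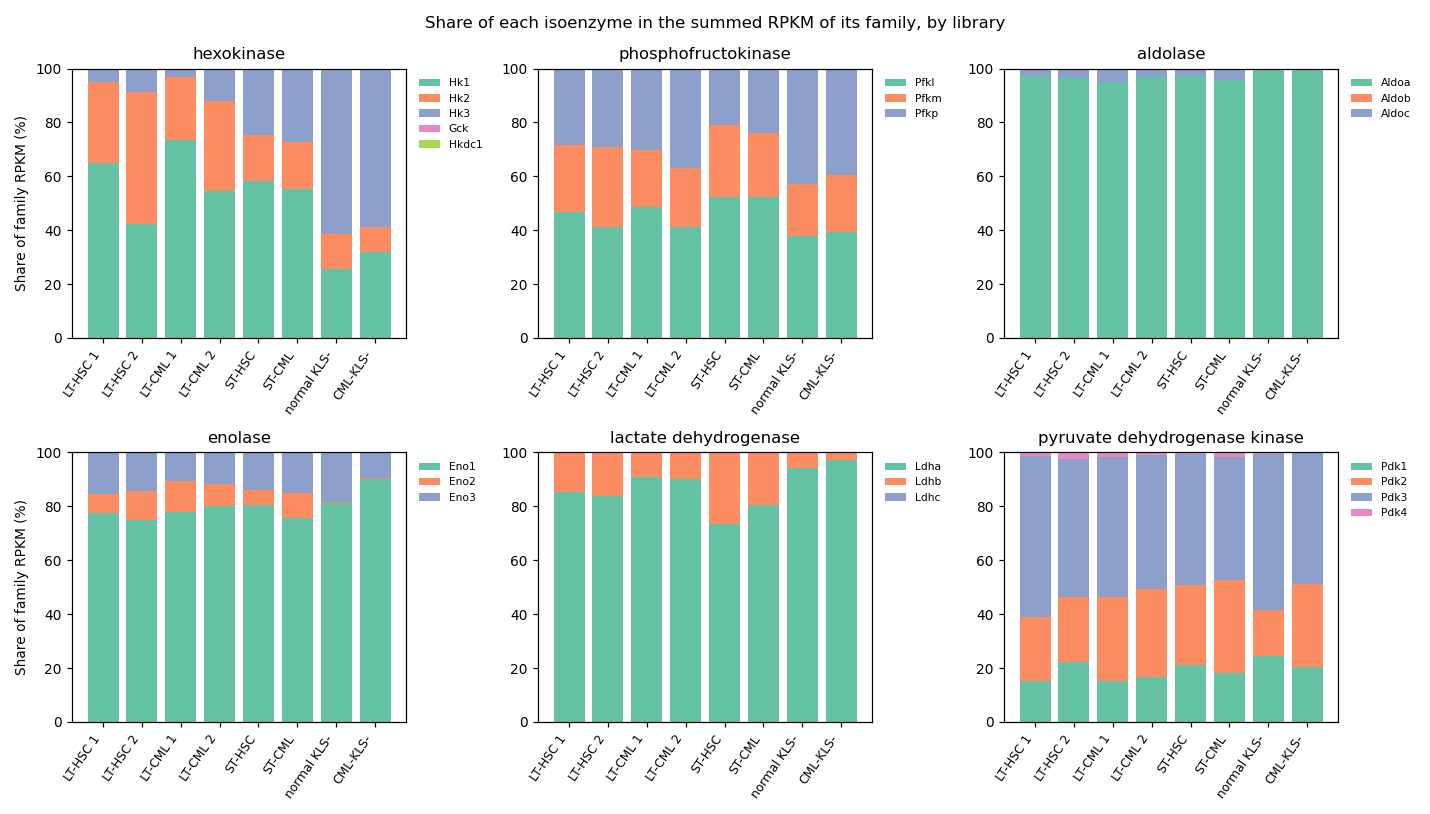
Share in percent (vertical axis) of each isoenzyme gene in the summed RPKM of its family, for 6 enzyme families, with 1 bar per library (horizontal axis). Hk3 fills 61.5% and 59.0% of the hexokinase bar in the normal and CML-KLS- libraries, Aldoa fills at least 95.2% of the aldolase bar everywhere, and Pdk3 is the largest part of each kinase bar.

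The same 6 genes, Gpi1, Aldoa, Pgk1, Eno1, Ldha and Pdk2, were those whose KLS- values did not overlap with the stem cell values, which held for 49.6% of all genes tested. The calls differed in how firmly they held. Gpi1 and Pgk1 passed under all 19 alternative settings. Aldoa and Ldha lost their calls under quantile normalization, with differences of 0.43 (limma adjusted p = 0.101) and 0.31 (limma adjusted p = 0.301), and the upper end of the whole distribution was itself higher in KLS- libraries, whose 99th percentile was 351 and 366 RPKM against 217 to 259 RPKM in stem cells. Without the CML-KLS- library, Aldoa (0.86, limma adjusted p = 0.0898), Eno1 and Ldha (0.75, limma adjusted p = 0.176) did not pass, and without the normal KLS- library Ldha (0.99, limma adjusted p = 0.0857) and Pdk2 (-0.62, limma adjusted p = 0.105) did not.

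**Figure D3:**
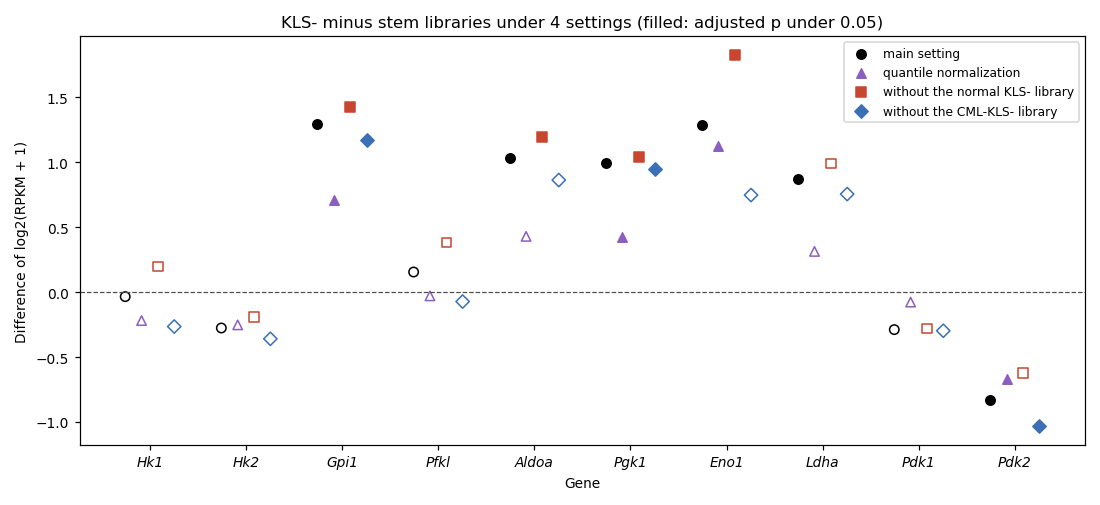
Difference of mean log2(RPKM + 1) between KLS- and stem cell libraries (vertical axis) for each gene (horizontal axis) under 4 settings, with filled symbols where the limma adjusted p was under 0.05. Gpi1 and Pgk1 are filled in all 4 settings, and the triangles of quantile normalization lie lower than the main values for the 5 genes that rose.

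The remaining genes of glucose use were read from lists of their own. Beside their counts stand the shares of all genes tested, of which 19% were higher and 22.7% lower in KLS- cells. Of 15 other glycolytic genes tested, 8 were higher in KLS- cells and 4 lower, with a median difference of 0.87 on the log2 scale. The largest rises were those of Pklr, a pyruvate kinase typical of liver and red cells (0.0206 to 1.08 RPKM in stem cells, 6.03 and 22.4 RPKM in KLS- cells, 3.38 ± 0.37 SE), Hk3 and Pgam1, phosphoglycerate mutase (34.1 to 44.5 RPKM against 129 and 118 RPKM, 1.63 ± 0.13 SE). Gapdh, Pkm2, Pfkp, Eno3 and Tpi1, the other 5, rose by 0.87 to 1.08. The 4 lower genes were Aldoc (-2.86 ± 0.25 SE), Ldhb, Eno2 (-1.08 ± 0.14 SE) and Bpgm (-0.88 ± 0.22 SE). Of 10 genes for the entry of pyruvate into the mitochondrion, 6 were higher and 1, Pdk3, was lower. The rises were led by the pyruvate carrier subunit Brp44l (86.6 to 101 RPKM against 205 and 198 RPKM, 1.10 ± 0.11 SE) and the complex subunits Pdhx (0.84 ± 0.16 SE) and Dld (0.76 ± 0.14 SE). Brp44, another carrier subunit, did not pass, at 20.3 to 32.2 RPKM in stem cells and 28.96 and 28.4 RPKM in KLS- cells. Of 5 genes that set fructose 2,6-bisphosphate, the activator of phosphofructokinase, 2 were higher and 1 lower, with 9630033F20Rik, now called Tigar, a phosphatase that lowers it, rising most (1.82 ± 0.17 SE). In the pentose phosphate pathway, which branches off after hexokinase to supply NADPH and ribose, 6 of 7 genes were higher and none was lower (limma, median 1.42), with Pgd (23.4 to 31.99 RPKM against 105 and 126 RPKM, 1.98 ± 0.15 SE), G6pdx (1.52 ± 0.20 SE) and Taldo1 (1.44 ± 0.23 SE) leading. Every gene named in this paragraph with a value for its rise or fall had a limma adjusted p of at most 0.0206.

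**Figure D4:**
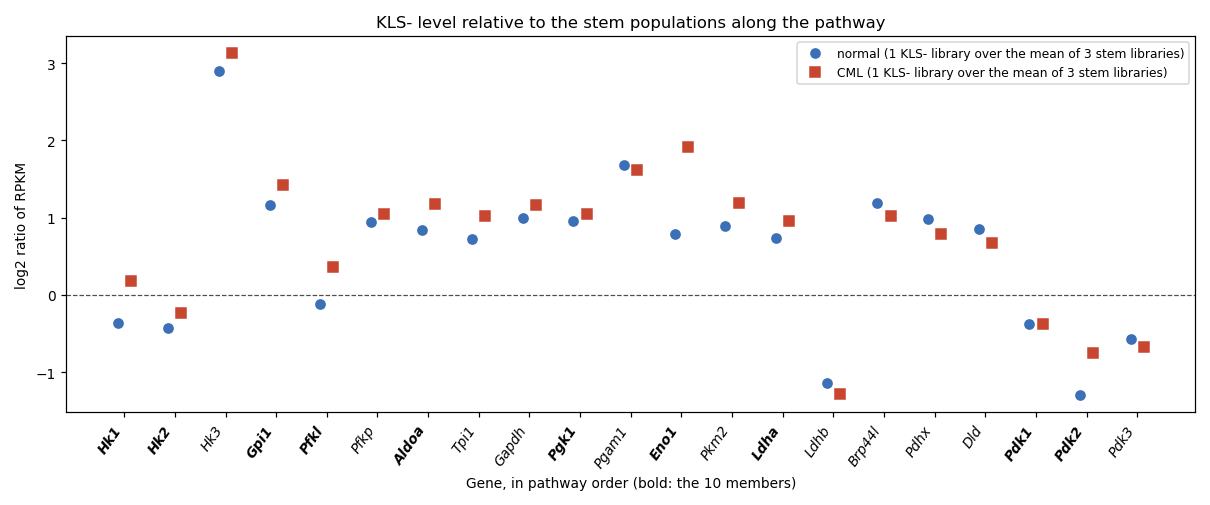
log2 ratio of RPKM (vertical axis) of the KLS- library to the mean of the 3 stem cell libraries, normal in blue circles and CML in red squares, for 21 genes in pathway order (horizontal axis, the 10 described genes in bold). Both ratios lie above 0 from Pfkp to Ldha and below 0 for Ldhb and the 3 Pdk genes, and the ratio of Eno1 differs most between normal (1.72-fold) and CML (3.75-fold) cells.

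Genes of the hypoxia response were split in direction. Hif1a, the regulated subunit of HIF-1, stood at 4.61 to 6.78 RPKM in all 8 libraries. Of 10 tested regulators of hypoxia and glycolysis, 5 passed by limma, against 41.6% of all genes tested. In KLS- cells 2 were higher, Myc (0.75 ± 0.26 SE, limma adjusted p = 0.0487) and the prolyl hydroxylase gene Egln1 (0.44 ± 0.13 SE, limma adjusted p = 0.0291). Another 3 were lower, led by Meis1, a transcription factor of stem cells that activates Hif1a, which fell from 105 to 166 RPKM to 20.01 and 9.93 RPKM (-3.16 ± 0.16 SE, limma adjusted p = 1.75e-05). Of 10 HIF targets outside glycolysis, none was higher by limma and 5 were lower (median -0.49), where 22.7% of all genes were lower, led by Ndrg1 (19.4 to 37.1 RPKM against 7.06 and 9.15 RPKM, -1.63 ± 0.23 SE, limma adjusted p = 0.00108) and Bnip3 (-0.60 ± 0.17 SE, limma adjusted p = 0.0210).

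The second comparison asked whether the enzymes differ between CML stem cells and normal HSCs. By limma, none of the 10 passed between the 3 CML and 3 normal stem cell libraries, where 2.34% of all genes passed. None had groups that did not overlap, which held for 18.3% of all genes. LT or ST type was no term in this fit or in the permutation tests below, so their spread includes the difference between LT and ST cells. With that type as a covariate, 543 of all genes passed against 294, and again none of the 10 did. Hk2 was the only one of the 10 with an unadjusted limma p under 0.05 (0.0413), as had 1573 of all genes. The median difference was 0.11 on the log2 scale against -0.04 over all genes tested, and the 95% intervals of the 10 genes ran from -1.03 to 0.78 at their widest ends. Exact two-sided permutation tests over the 6 libraries gave p of 0.2 to 0.8, and 0.1 is the smallest that 3 against 3 allows.

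The genes furthest from 0 were Hk2 and Pdk1, each lower in CML. Hk2 was at 10.2 to 17.5 RPKM in normal HSCs and 7.66 to 10.7 RPKM in CML stem cells (-0.53, interval -1.03 to -0.03, limma adjusted p = 0.376). Pdk1 was at 3.99 to 5.42 RPKM in normal HSCs and 3.08 to 4.02 RPKM in CML stem cells (-0.37, interval -0.76 to 0.02, limma adjusted p = 0.428). In each the groups overlapped by a single pair of libraries. The largest positive values were 0.25 for Gpi1 (interval -0.15 to 0.66, limma adjusted p = 0.643) and 0.23 for Eno1 (interval -0.15 to 0.62, limma adjusted p = 0.657). With Gm5506 added to Eno1, the difference became 2.25 and passed (limma adjusted p = 0.000724). For Aldoa, Ldha and Pgk1 the differences were 0.14, 0.14 and -0.03.

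Within the replicated LT populations, in a fit of all 8 libraries, again none of the 10 passed by limma, where 1.73% of all genes did. Hk2 was at 13.5 and 17.5 RPKM in LT-HSCs and 8.94 and 10.7 RPKM in LT-CML stem cells (-0.60 ± 0.21 SE, limma adjusted p = 0.317). Gpi1 was at 111 and 92.7 RPKM against 119 and 138 RPKM (0.33 ± 0.19 SE, limma adjusted p = 0.604). These 2 against 2 libraries did not overlap for Hk2, Gpi1, Aldoa, Eno1, Ldha and Pdk1. The share of all genes for which they did not overlap was not counted, so no difference can be read from this list. The largest fitted rise among the 10 was 1.26-fold, that of Gpi1, Hk2 had the largest fall, and the sum of Eno1 and Gm5506 gave 2.26 on the log2 scale (limma adjusted p = 0.00457).

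Among the other lists of glucose use, 1 gene passed in CML stem cells. This was Rpe, a pentose phosphate epimerase, at 10.8 to 16.0 RPKM in normal HSCs and 4.12 to 4.91 RPKM in CML stem cells (-1.34 ± 0.17 SE, limma adjusted p = 0.00950), and it was also at 28.5 RPKM in normal and 10.03 RPKM in CML-KLS- cells. The lists of other glycolytic genes, pyruvate entry, fructose 2,6-bisphosphate, gluconeogenesis, regulators of hypoxia and HIF targets held 0 called genes by limma out of 15, 10, 5, 4, 10 and 10 tested.

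**Figure D5:**
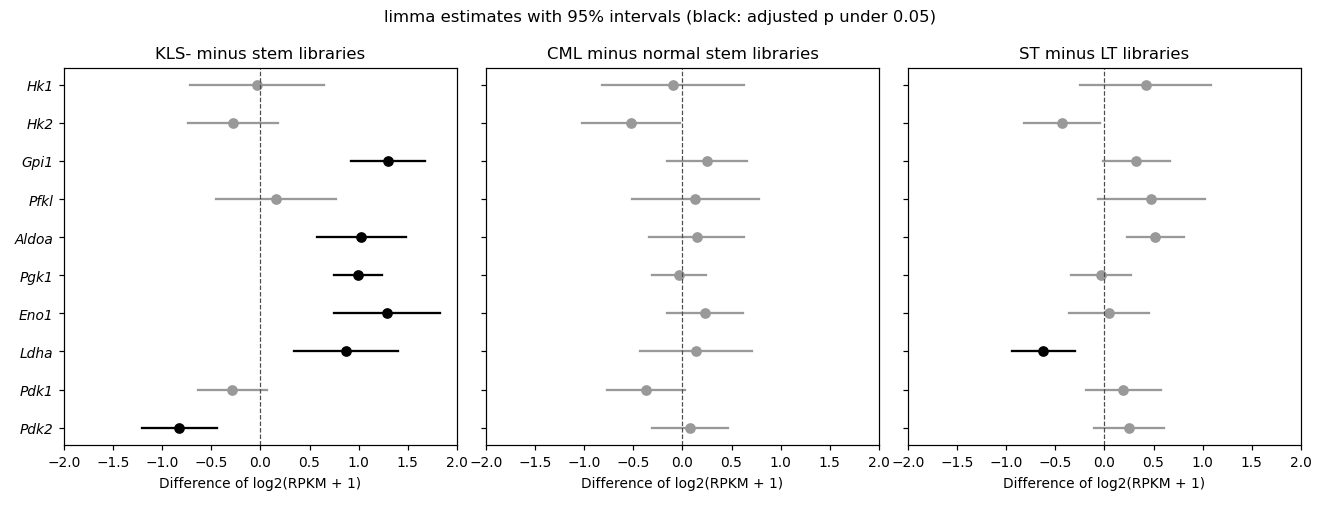
limma differences of log2(RPKM + 1) with 95% intervals (horizontal axis) for the 10 genes (vertical axis) between KLS- and stem cells, CML and normal stem cells, and ST and LT cells, black where the adjusted p was under 0.05. There are 6 black intervals in the first panel, 0 in the second and 1, that of Ldha, in the third.

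The CML difference was then compared between progenitors and stem cells. In the single KLS- libraries, 8 of the 10 genes were higher in CML, from 1.04-fold for Pgk1 to 2.57-fold for Eno1. Hk2 (0.757-fold) and Pdk1 (0.725-fold) were lower. Each is a difference between 2 libraries with no replicate. The share of all genes that were higher in the CML-KLS- library was not counted, so this count says nothing particular about the 10. The 10 genes summed to 0.396% of all RPKM in the normal and 0.5003% in the CML-KLS- library, against 0.261% to 0.339% in stem cells. When the CML effect in KLS- cells minus that in stem cells was tested by limma, none of the 10 passed. Only 1 of all genes did, or 0.00796%, and 324 had an unadjusted p under 0.05. Eno1 had the largest value, 1.08 on the log2 scale (interval 0.31 to 1.85, limma adjusted p = 0.9999).

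The last comparison asked how the enzymes differ between ST and LT stem cells. Ldha was lower in the 2 ST libraries, at 324 and 318 RPKM against 428 to 561 RPKM in the 4 LT libraries (-0.62 ± 0.14 SE, limma adjusted p = 0.0493 with disease state as a term). It was the only one of the 10 to pass, where 4.08% of all genes passed and 2.28% in the lower direction. Aldoa was at 362 and 399 RPKM in ST against 240 to 287 RPKM in LT libraries (0.52 ± 0.13 SE, limma adjusted p = 0.0683). Gpi1, Pfkl, Aldoa and Pdk2 lay wholly above and Ldha wholly below the LT values, which either way held for 24.2% of all genes. The Ldha call was lost with any of LT-HSC replicate 1, ST-HSCs, either LT-CML replicate or ST-CML stem cells left out (limma adjusted p = 0.0836 to 0.499) and with a term shared by the second replicates of both LT populations (-0.71, limma adjusted p = 0.0734), and Aldoa passed without the second replicate of both LT populations (0.46, limma adjusted p = 0.0291). Hk3 was higher in ST cells, at 14.5 and 12.01 RPKM against 1.08 to 3.90 RPKM (2.06 ± 0.31 SE, limma adjusted p = 0.0125). Of the 9 cell-cycle genes 6 were lower in ST cells (median -1.43), and the 4 megakaryocyte genes summed to 32.8 and 43.5 RPKM against 269 to 454 RPKM in LT cells. Their part in the Ldha difference was not tested.

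For the 3 genes with the widest range between populations, the genes of most similar profile were found among 6335 genes with a mean of at least 5 RPKM, by the root mean square difference of profiles on the log2(RPKM + 1) scale, each centred on its own mean over the 8 libraries. Aldoa lay nearest to Pkm2, the main pyruvate kinase gene, at 0.061, with 260, 234, 332 and 509 RPKM of Pkm2 in LT-HSC replicates 1 and 2, ST-HSCs and normal KLS- cells and 304, 279, 398 and 749 RPKM in their CML counterparts. Next came Ucp2, a mitochondrial carrier, at 0.062 and Atp6ap1, an accessory subunit of the vacuolar proton pump, at 0.11. Gpi1 lay nearest to Kctd20, Lman2 and Acaa2, all at 0.12. Eno1 lay nearest to Shmt2, the mitochondrial serine hydroxymethyltransferase, at 0.11, with 36.1 RPKM of Shmt2 in normal KLS- and 86.0 RPKM in CML-KLS- cells against 14.9 to 29.9 RPKM in stem cells, followed by Ccdc22 and Uqcrc1 at 0.15. These are descriptions over 8 libraries that share their cell types.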

How the data were processed

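RNA was sequenced in 8 libraries of 6 sorted mouse bone marrow populations. The authors primed low-input cDNA with oligo-dT, read 100 bases from both ends of each fragment, aligned to mm9 (NCBI Build 37) and deposited RPKM values per gene. The annotation, the counting rule and the treatment of reads with several matches are not given in the sources used here.

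Groups were taken from the sample labels. RPKM are not counts, so R 4.3.3 with limma 3.58.1 (functions lmFit and eBayes, intensity trend on, two-sided) was applied to log2(RPKM + 1), the pseudocount being 1, of the 12561 genes whose RPKM summed to more than 1, with Benjamini-Hochberg adjustment over all of them and a threshold of 0.05. This replaced the study's own test of RPKM per gene. The 2 ST, or 2 KLS-, libraries entered as samples with disease as a term. Single values were also compared by exact permutation.

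Depth was estimated from the steps between low RPKM values, of which 76.3% of 5176 low genes lay on whole multiples within 3%, and scaled by exon lengths of GENCODE on NCBI Build 37, a scale held by 1511 of 3646 genes. Counting errors cover sampling of reads only. Exact 100-base stretches of each transcript were searched in that genome. Python 3.11.15, pandas 2.3.3, scipy 1.17.1 and matplotlib 3.10.9 were used, and the fits were tested on simulated data.

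The 10 genes, the gene lists and the tests were chosen with earlier results of these data known. The 10 genes were named in every comparison, and of each other list at most 3 passing genes per direction, by size, besides isoenzymes of the same families and the 3 genes of most similar profile for the 3 widest-ranging genes. H2-Ea, Ddx3y and Xist served as checks of the mice. Genes named outside this rule were Gm5506, Mst1r, Gapdh, Tpi1, Bpgm, Brp44, Hif1a, Hba-a1, Hba-a2, Hbb-b1, Hbb-b2, Alas2, Camp, Ltf, Ngp, S100a8 and S100a9, after their values were seen. Alternatives covered the pseudocount, the filter on low values, normalization, the trend, the covariates and each library left out, and 3 alternatives were added after seeing the data, the omission of both second LT replicates, a term shared by them, and the sum of Eno1 and Gm5506. No sample was left out of the main results, and the BCR-ABL1 transgene was not analysed here.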

Additional observations from a re-analysis of the deposited data

Results flagged for a closer look

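Mst1r, a receptor tyrosine kinase gene outside glucose metabolism, was the only gene whose CML effect differed between KLS- and stem cells by limma (2.44 on the log2 scale, adjusted p = 0.0196), and none of the 10 glycolytic and kinase genes did. It was at 4.73 RPKM in the single CML-KLS- library, 0 RPKM in normal KLS- cells and at most 0.126 RPKM in stem cells. The call rests on 1 library in each KLS- group. With a pseudocount of 0.1, without the trend, or with a term shared by the second LT replicates, limma called 0 genes. It also called 0 in 5 of the 6 fits that left out a library. A filter at a mean RPKM of at least 1 also gave 0, but it removed Mst1r before the test.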

How the results depend on the processing

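Of 770 recalculations of a difference of 1 of the 10 genes, 750 kept direction and side of the threshold, 15 no longer passed, 5 newly passed and 0 reversed among called values. No paired analysis was possible because the labels give the normal LT libraries ages and no replicate numbers, and the other populations have 1 library each. A term shared by the second LT libraries, which hold Ddx3y, was tried instead after the data were seen. It gave 290 calls for CML against normal stem cells, 294 for LT-CML against LT-HSCs, 4959 for KLS- against stem cells (6 of the 10 genes), 244 for ST against LT (0 of the 10) and 0 for the CML effect in KLS- minus that in stem cells. The number of all genes called moved as follows. For CML against normal stem cells it was 294, 193 with no filter on low values, 543 with LT or ST as a covariate, 38 without the second replicate of both LT populations, and 115 to 217 with each library left out. For LT-CML against LT-HSCs it was 217, 0 with no filter, and 6 to 74 with each library left out. For KLS- against stem cells it was 5231, and 1750 (without CML-KLS-) to 5275 with each library left out, with 2148 without normal KLS- cells. For ST against LT it was 513, 0 with no filter, 1213 without both second LT replicates, and 55 (without ST-HSCs) to 712 with each library left out, with 63 without ST-CML, 222 and 237 without an LT-CML replicate and 330 without LT-HSC replicate 1. For the CML effect in KLS- minus that in stem cells it was 1, 0 with a pseudocount of 0.1, 0 with a mean RPKM of at least 1, 10 with no filter, 0 without the trend, and 0 to 1 with each library left out. Of the 10 genes, 6 passed between KLS- and stem cells, and 3 to 6 with each library left out. Between ST and LT cells 1 passed (Ldha), 0 with no filter or without the trend, 2 (Aldoa added) under quantile normalization, upper-quartile scaling or without both second LT replicates, and 0 to 1 with each library left out. Between CML and normal cells 0 passed, and 1 with Eno1 and Gm5506 summed, in stem cells and in LT cells alike. With 1 library per ST and KLS- population of each disease state, leaving it out assumes that the rest vary alike.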

Other observations

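Gluconeogenic genes encode enzymes that run opposite to glycolysis. Fbp1, fructose bisphosphatase, was higher in ST than in LT cells, at 15.3 and 11.9 RPKM against 3.91 to 6.63 RPKM (1.31 ± 0.15 SE on the log2 scale, limma adjusted p = 0.00666). G6pc3, the glucose-6-phosphatase gene of blood cells, was at 27.8 to 37.3 RPKM in stem cells and at 78.5 and 67.5 RPKM in normal and CML-KLS- cells (1.12 ± 0.15 SE, limma adjusted p = 0.000832). Of the 4 gluconeogenic genes tested, 2 were higher in KLS- cells, G6pc3 and Pcx, and none was lower by limma, where 41.6% of all genes tested passed in either direction.

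Markers of other lineages moved unevenly within their lists. In KLS- cells Klf1, an erythroid transcription factor, rose from 0.486 to 1.90 RPKM in stem cells to 6.34 and 9.07 RPKM (2.17 ± 0.25 SE, limma adjusted p = 0.000443). Alas2, Hbb-b1 and Hbb-b2, of the same list, had differences of -0.36, -0.47 and -0.85 and did not pass. Ctsg, a neutrophil granule protease gene, stood at 606 and 702 RPKM against 0.434 to 123 RPKM (5.91 ± 1.45 SE, limma adjusted p = 0.0123), in a list of 8 with 4 positive differences. Pf4, a platelet chemokine gene, was at 202 to 359 RPKM in LT and at 16.1 and 16.4 RPKM in ST cells (-4.14 ± 0.23 SE, limma adjusted p = 0.000423). The haemoglobin genes Hba-a1 and Hba-a2 were listed at 0 in all 8 libraries. The lymphoid list had 0 of 5 tested genes called between KLS- and stem cells by limma.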
